A study of Arabidopsis thaliana with 12 samples.

Results

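The 10 genes described here make and export suberin, the lipid polyester that plants lay down in the walls of endodermis, periderm, wounded tissue and seed coats. They were taken by their gene identifiers, as 10 of the 27655 genes in the deposited tables, by a rule that uses no measured value, although the genes were proposed with earlier results of these data known. They are GPAT5 (AT3G11430), CYP86A1 (AT5G58860), CYP86B1 (AT5G23190), FAR1 (AT5G22500), FAR4 (AT3G44540), FAR5 (AT3G44550), ASFT (AT5G41040), KCS2 (AT1G04220), ABCG6 (AT5G13580) and ABCG20 (AT3G53510). Transcripts were measured in whole Arabidopsis thaliana seedlings of the wild-type accession Col-0, raised in 96-well plates at 22 °C. The seedlings had spent 6 h in liquid medium with sucrose, under continuous light, with 10 µM 3'-butyl ABA, 10 µM 3'-propyl ABA, 10 µM ABA or DMSO as the control. Abscisic acid (ABA) is the plant hormone of drought and seed dormancy, and the derivatives carry a butyl or a propyl group at the 3' position. The sample labels give an age of 8 days and the series text 7 days. Each treatment had 3 strand-specific poly(A) libraries, 12 in all, and no label says that they came from separate cultures, so the tests measure the spread between these libraries, which may be technical.

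Suberin has a fatty part and a phenolic part. Fatty acids are elongated, hydroxylated at their far end or reduced to alcohols, joined to glycerol, and partly esterified to ferulate before half-size ABC transporters are thought to carry the building blocks across the plasma membrane. In young roots the endodermis is the main suberized tissue, and ABA is known to raise suberin deposition there. The values are transcripts per 1000000 transcripts (TPM), which are scaled for transcript length within each library. A gene was called higher or lower when its adjusted p, from limma on log2(TPM + 1) with Benjamini-Hochberg adjustment over 19528 genes, was under 0.05. Fold changes are differences on that log2 scale, with standard errors, and they understate the change of genes near 0. Because whole seedlings were used, fewer cells of a type and less RNA per cell cannot be told apart in any of the values below.

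The genes lie on chromosomes 1, 3 and 5 of the TAIR10.1 assembly. Only FAR4 (chr3:16123426-16128030, 9 exons) and FAR5 (chr3:16137576-16142270, 10 exons) are neighbours, on the same strand and 9545 bases apart. The 250 bases upstream of the annotated transcript start, from the RefSeq genome of that build, are shown 5′ to 3′ on the gene's strand for 5 genes. GPAT5 (chr3:3595444-3595693, plus strand), FAR1 (chr5:7470078-7470327, plus strand) and FAR4 (chr3:16123176-16123425, plus strand) are the genes whose window held ACGTG, the core of the ABA-responsive element bound by bZIP factors. ASFT (chr5:16431054-16431303, plus strand) is the gene whose window held an AC element, a type of site bound by MYB factors. KCS2 (chr1:1122787-1123036, minus strand) is the gene with the largest difference between compounds, and its window held none of the motifs searched. Capitals mark ACGTG on either strand (CACGT is its reverse complement), CCGAC (the dehydration-responsive element core, in FAR1) and ACCTAAC on either strand (GTTAGGT is its reverse complement, in ASFT).
GPAT5: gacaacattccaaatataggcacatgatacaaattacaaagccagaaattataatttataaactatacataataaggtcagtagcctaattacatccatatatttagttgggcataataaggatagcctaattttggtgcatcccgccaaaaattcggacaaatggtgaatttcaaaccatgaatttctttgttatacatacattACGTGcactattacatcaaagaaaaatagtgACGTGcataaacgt
FAR1: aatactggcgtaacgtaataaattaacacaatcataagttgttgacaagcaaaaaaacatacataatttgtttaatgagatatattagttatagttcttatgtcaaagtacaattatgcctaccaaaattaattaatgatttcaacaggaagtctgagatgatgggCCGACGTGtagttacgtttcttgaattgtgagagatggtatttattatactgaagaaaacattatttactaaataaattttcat
FAR4: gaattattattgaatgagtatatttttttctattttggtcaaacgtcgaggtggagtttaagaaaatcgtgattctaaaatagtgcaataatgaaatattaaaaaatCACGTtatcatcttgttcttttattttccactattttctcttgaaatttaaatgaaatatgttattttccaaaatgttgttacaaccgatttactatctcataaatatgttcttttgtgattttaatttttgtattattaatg
ASFT: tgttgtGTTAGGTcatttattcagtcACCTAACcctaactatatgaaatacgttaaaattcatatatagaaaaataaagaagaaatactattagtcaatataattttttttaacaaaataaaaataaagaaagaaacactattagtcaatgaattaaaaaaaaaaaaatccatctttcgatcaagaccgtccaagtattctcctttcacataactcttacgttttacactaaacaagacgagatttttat
KCS2: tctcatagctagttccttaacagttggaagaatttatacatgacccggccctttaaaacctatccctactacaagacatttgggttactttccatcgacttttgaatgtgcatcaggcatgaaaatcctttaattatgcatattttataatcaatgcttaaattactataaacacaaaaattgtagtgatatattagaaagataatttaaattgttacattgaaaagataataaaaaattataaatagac

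In the window from 250 bases before to 50 after the start, read on both strands, ACGTG occurred in 3 of the 10 genes, against 26.7% of 27438 gene starts in the annotation. GPAT5 held it at -45 and at -14, counted from the start to the first base of the match. The G-box CACGTG, which contains ACGTG, occurred in 0 of the 10, against 7.7% of all starts. CCGAC occurred in FAR1 alone, where it overlaps ACGTG, against 15.1% of all starts. The AC elements searched were ACCTACC, the variant with ACCAACC and the variant with ACCTAAC. They occurred in ASFT alone, against 7.3% of all starts. A match is a run of letters and not a shown binding site, and these counts draw no link to the values that follow.

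All 10 genes were called higher with each compound than with DMSO, and in each of these comparisons the 3 treated libraries lay above the 3 DMSO libraries for every gene. Of all genes tested, 25.1% were called higher with 3'-butyl ABA, 27.5% with 3'-propyl ABA and 22.0% with ABA. A rise of at least 1 log2 unit was called for all 10 genes with each compound, against 7.91% of all genes with 3'-butyl ABA, 11.3% with 3'-propyl ABA and 6.79% with ABA. Libraries that did not overlap, with the treated ones higher, were found for 29.4% of all genes with 3'-butyl ABA, 28.6% with 3'-propyl ABA and 23.9% with ABA. The median log2 fold change of the 10 genes was 3.28 with 3'-butyl ABA, 3.83 with 3'-propyl ABA and 3.23 with ABA, while the median of all genes was 0.001 with 3'-butyl ABA, -0.116 with 3'-propyl ABA and -0.029 with ABA. The 3 comparisons share the DMSO libraries. Every gene had a DMSO mean above 1 TPM, so all 10 would have passed the filter on low values, a mean of at least 1 TPM, in DMSO alone.

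**Figure D1:**
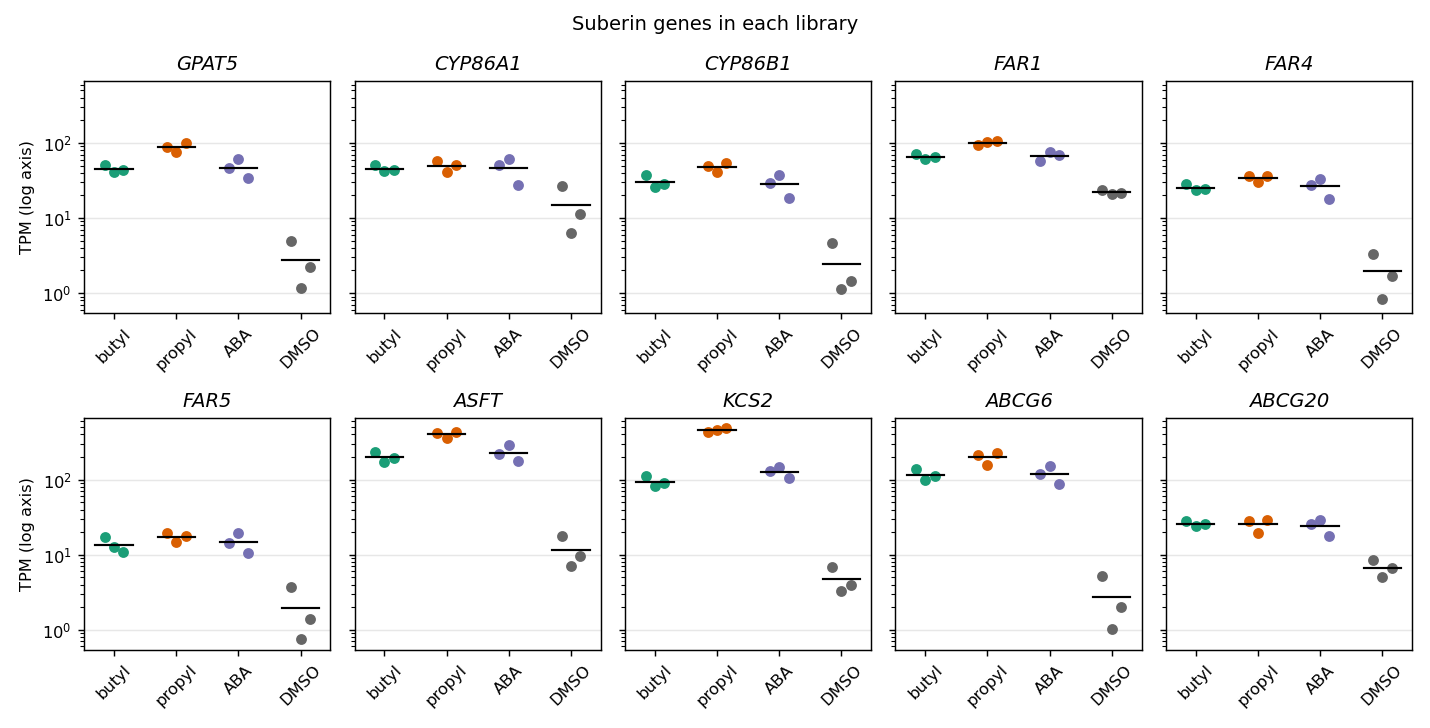
TPM (log axis) of each of the 10 suberin genes in each library, with 3'-butyl ABA, 3'-propyl ABA, ABA and DMSO from left to right. Points are libraries, 3 per treatment in the order of their replicate numbers, and black lines are means. The DMSO points lie lowest in every panel, the KCS2 points with 3'-propyl ABA (429.9 to 483 TPM) stand clear of the other treatments, and the CYP86A1 point of DMSO replicate 1 (26.9 TPM) comes close to that of ABA replicate 3 (27.4 TPM).

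KCS2 encodes a ketoacyl-CoA synthase, which adds carbons to fatty acids on the way to the long chains of suberin. It had 111, 82.7 and 89.2 TPM with 3'-butyl ABA, 429.9, 461 and 483 TPM with 3'-propyl ABA, 129, 149 and 106 TPM with ABA, and 6.91, 3.31 and 3.93 TPM with DMSO. The 3'-propyl ABA libraries stood far above all others, those of 3'-butyl ABA and ABA overlapped, and DMSO was lowest. The log2 fold change against DMSO was 4.10 ± 0.21 (SE, the same in all 3 comparisons with DMSO) with 3'-butyl ABA (adjusted p = 8.7e-08 from limma), 6.38 with 3'-propyl ABA (7.4e-10) and 4.53 with ABA (4e-08). With 3'-propyl ABA the rise of KCS2 ranked 27 from the top among the 19528 genes tested. KCS20, its close relative that is known to act with it in root suberin, moved much less. KCS20 averaged 121 ± 7.44 TPM with 3'-butyl ABA, 257 ± 17.5 with 3'-propyl ABA, 141 ± 13.2 with ABA and 182 ± 19.0 with DMSO (SD, n = 3 each). It was called lower than DMSO with 3'-butyl ABA (log2 fold change -0.58) and with ABA (-0.37), and higher with 3'-propyl ABA (0.50).

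The P450 enzymes CYP86A1 and CYP86B1 hydroxylate the far end of fatty acids, CYP86A1 on shorter and CYP86B1 on very long chains. CYP86A1 had 50.6, 42.0 and 43.0 TPM with 3'-butyl ABA, 58.1, 41.1 and 50.9 TPM with 3'-propyl ABA, 50.5, 61.6 and 27.4 TPM with ABA, and 26.9, 6.22 and 11.1 TPM with DMSO. Its DMSO libraries spread 4.32-fold, and the lowest ABA library was barely above the highest DMSO library. The log2 fold changes of CYP86A1, 1.77 ± 0.44 with 3'-butyl ABA (adjusted p = 0.0065 from limma), 1.91 with 3'-propyl ABA (0.0029) and 1.74 with ABA (0.0079), carried the largest errors of the 10 genes. CYP86B1 had 37.0, 25.5 and 28.3 TPM with 3'-butyl ABA, 49.3, 40.6 and 54.6 TPM with 3'-propyl ABA, 29.1, 37.6 and 18.3 TPM with ABA, and 4.66, 1.12 and 1.43 TPM with DMSO. Here the treated and DMSO libraries were well separated, with log2 fold changes of 3.33 ± 0.36 with 3'-butyl ABA, 3.99 with 3'-propyl ABA and 3.19 with ABA. CYP86B2, the closest relative of CYP86B1, also rose, to 10.6 ± 1.94 TPM with 3'-butyl ABA, 16.6 ± 0.745 with 3'-propyl ABA and 7.81 ± 2.67 with ABA, against 0.261 ± 0.209 with DMSO (SD, n = 3 each).

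FAR1, FAR4 and FAR5 encode fatty acyl-CoA reductases that make the primary alcohols of suberin, each with its own preferred chain length. FAR1 had 71.2, 61.0 and 65.6 TPM with 3'-butyl ABA, 92.7, 104 and 107 TPM with 3'-propyl ABA, 57.0, 75.3 and 68.4 TPM with ABA, and 23.9, 20.9 and 21.8 TPM with DMSO. It was the member with the highest mean level in DMSO and the tightest DMSO libraries, with a coefficient of variation of 7.0%. Its log2 fold change was the smallest of the 10 with 3'-butyl ABA (1.53 ± 0.10) and with ABA (1.54), and 2.14 with 3'-propyl ABA. FAR4 had 28.0, 23.4 and 24.7 TPM with 3'-butyl ABA, 36.6, 30.5 and 36.7 TPM with 3'-propyl ABA, 27.7, 33.2 and 18.1 TPM with ABA, and 3.31, 0.843 and 1.71 TPM with DMSO. FAR5 had 17.0, 12.8 and 10.8 TPM with 3'-butyl ABA, 19.4, 14.8 and 17.5 TPM with 3'-propyl ABA, 14.1, 19.4 and 10.7 TPM with ABA, and 3.70, 0.746 and 1.38 TPM with DMSO. FAR5 had the lowest mean level of the 10 genes in all 4 treatments. Log2 fold changes of FAR4 were 3.24 ± 0.28 with 3'-butyl ABA, 3.67 with 3'-propyl ABA and 3.26 with ABA, and those of FAR5 were 2.41 ± 0.33 with 3'-butyl ABA, 2.75 with 3'-propyl ABA and 2.51 with ABA. FAR8, which follows FAR5 on the chromosome after 1 intervening gene, and FAR7 were listed at 0 in all 12 libraries.

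GPAT5 joins fatty acyl groups to glycerol, the backbone of the polyester. It had 50.3, 41.2 and 44.2 TPM with 3'-butyl ABA, 89.3, 76.2 and 101 TPM with 3'-propyl ABA, 45.9, 60.5 and 33.6 TPM with ABA, and 4.87, 1.17 and 2.20 TPM with DMSO. The 3'-propyl ABA libraries were above all others, and those of 3'-butyl ABA lay inside the range of ABA. The log2 fold change was 3.74 ± 0.32 with 3'-butyl ABA, 4.70 with 3'-propyl ABA and 3.75 with ABA. The related GPAT7, known from wound suberin, had 16.1, 10.8 and 12.4 TPM with 3'-butyl ABA, 25.6, 20.0 and 23.2 TPM with 3'-propyl ABA, 14.4, 15.5 and 6.11 TPM with ABA, and 0.669, 0.0694 and 0.323 TPM with DMSO. GPAT7 was called higher with each compound.

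ASFT transfers ferulate to hydroxylated fatty acids and so ties the phenolic to the fatty part. ASFT had 233, 173 and 197 TPM with 3'-butyl ABA, 416, 359 and 437 TPM with 3'-propyl ABA, 219, 286 and 175 TPM with ABA, and 17.6, 7.15 and 9.65 TPM with DMSO. It had the highest mean level of the 10 genes with 3'-butyl ABA and with ABA, and it was second to KCS2 with 3'-propyl ABA. Its log2 fold changes were 4.10 ± 0.28 with 3'-butyl ABA, 5.11 with 3'-propyl ABA and 4.25 with ABA. FACT, a relative that transfers caffeate to fatty alcohols of root waxes, was called higher with each compound, with 80.3 ± 15.2 TPM for 3'-butyl ABA, 53.6 ± 6.78 for 3'-propyl ABA, 64.7 ± 19.1 for ABA and 15.7 ± 11.3 for DMSO (SD, n = 3 each).

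ABCG6 and ABCG20 are half-size ABC transporters required for suberin barriers of roots and seed coats. ABCG6 had 137, 97.8 and 112 TPM with 3'-butyl ABA, 213, 159 and 224 TPM with 3'-propyl ABA, 118, 151 and 86.2 TPM with ABA, and 5.25, 1.04 and 1.99 TPM with DMSO. It had the largest log2 fold change of the 10 genes with 3'-butyl ABA (5.10 ± 0.36) and with ABA (5.11), and 5.87 with 3'-propyl ABA. ABCG20 had 28.5, 23.8 and 25.3 TPM with 3'-butyl ABA, 28.5, 19.3 and 29.0 TPM with 3'-propyl ABA, 25.5, 29.2 and 17.7 TPM with ABA, and 8.58, 5.01 and 6.63 TPM with DMSO. The compounds overlapped for ABCG20, whose log2 fold changes were 1.82 ± 0.21 with 3'-butyl ABA, 1.79 with 3'-propyl ABA and 1.70 with ABA. Of related transporters, ABCG1 averaged 34.6 ± 4.59 TPM with 3'-butyl ABA, 132 ± 12.6 with 3'-propyl ABA, 33.5 ± 1.45 with ABA and 7.55 ± 0.431 with DMSO (SD, n = 3 each). ABCG16 averaged 17.9 ± 4.01 TPM with 3'-butyl ABA, 49.2 ± 4.77 with 3'-propyl ABA, 16.8 ± 3.49 with ABA and 1.87 ± 0.222 with DMSO (SD, n = 3 each). Both were called higher with each compound.

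The 3 compounds were given at the same concentration for the same time, and their 3 pairs were compared directly over the 10 genes. No gene was called between 3'-butyl ABA and ABA, while 4 genes were called higher with 3'-propyl ABA than with ABA and the same 4 lower with 3'-butyl ABA than with 3'-propyl ABA. These comparisons share libraries pair by pair. The 4 genes were KCS2, FAR1, GPAT5 and ASFT. Of all genes tested, 15.5% were called higher with 3'-propyl ABA than with ABA, 17.6% lower with 3'-butyl ABA than with 3'-propyl ABA, and 1.6% called in either direction between 3'-butyl ABA and ABA.

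Against ABA, 3'-propyl ABA gave a log2 difference of 1.85 ± 0.21 for KCS2 (95% interval 1.40 to 2.30), with an adjusted p of 4.8e-05 from limma. FAR1 differed by 0.60 ± 0.10 (interval 0.37 to 0.82, adjusted p = 0.00066 from limma), GPAT5 by 0.94 ± 0.32 (interval 0.23 to 1.65, adjusted p = 0.037) and ASFT by 0.86 ± 0.28 (interval 0.25 to 1.47, adjusted p = 0.029). All 3 libraries with 3'-propyl ABA were above all 3 with ABA for these 4 genes and for CYP86B1 and ABCG6, 6 of 10, against 19.5% of all genes. KCS2 alone was called higher by at least 1 log2 unit, against 3.54% of all genes. CYP86B1 and ABCG6 missed the threshold, CYP86B1 with a difference of 0.79 (interval -0.01 to 1.59) and ABCG6 with 0.76 (interval -0.05 to 1.57). For FAR4, FAR5, CYP86A1 and ABCG20 the libraries overlapped, with differences of 0.42, 0.24, 0.17 and 0.09. The intervals of CYP86A1 (-0.80 to 1.14) and of FAR5 (-0.48 to 0.96) still span sizable differences, while that of ABCG20 ran from -0.38 to 0.56. The median difference of the 10 genes was 0.68, against -0.097 for all genes. Of the 4 calls, KCS2 and FAR1 held whichever single library was left out. GPAT5 was lost without ABA replicate 1 or 3 (adjusted p of 0.08 and 0.13) or without any 3'-propyl ABA library (0.081, 0.05 and 0.11 without replicates 1, 2 and 3). ASFT was lost without ABA replicate 1 or 3 (0.072 and 0.1) or 3'-propyl ABA replicate 1 or 3 (0.072 and 0.088), which left 2 of 10 genes called.

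With 3'-butyl ABA, KCS2 lay 2.28 log2 units below its level with 3'-propyl ABA (interval of the difference -2.73 to -1.83, adjusted p = 7.8e-06 from limma). The corresponding differences were -1.01 for ASFT (adjusted p = 0.012), -0.95 for GPAT5 (0.031) and -0.61 for FAR1 (0.00045). Non-overlapping libraries, lower with 3'-butyl ABA, were found for 7 of 10 genes, namely these 4 with CYP86B1, FAR4 and ABCG6, against 22.1% of all genes. KCS2 and ASFT were called lower by at least 1 log2 unit, against 4.41% of all genes. The GPAT5 call was lost without 3'-propyl ABA replicate 1 or 3 or without any 1 of the 3'-butyl ABA libraries, with adjusted p-values of 0.052 to 0.094. ABCG20 was the single gene with a positive difference (0.03, interval -0.44 to 0.50). The median difference of the 10 was -0.64, against 0.131 for all genes.

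Between 3'-butyl ABA and ABA, which differ by the butyl group at the 3' position, the 10 differences ran from -0.43 for KCS2 to 0.13 for CYP86B1. Under an unadjusted p of 0.05 the count was also 0, the lowest being 0.059 for KCS2, whose interval was -0.88 to 0.02 (adjusted p = 0.31 from limma). The narrowest interval was that of FAR1, -0.24 to 0.21, and the widest that of CYP86A1, -0.94 to 1.00, so the data for CYP86A1 allow a difference of up to 1 log2 unit in either direction. The libraries overlapped for all 10 genes, while 25.8% of all genes did not overlap.

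**Figure D2:**
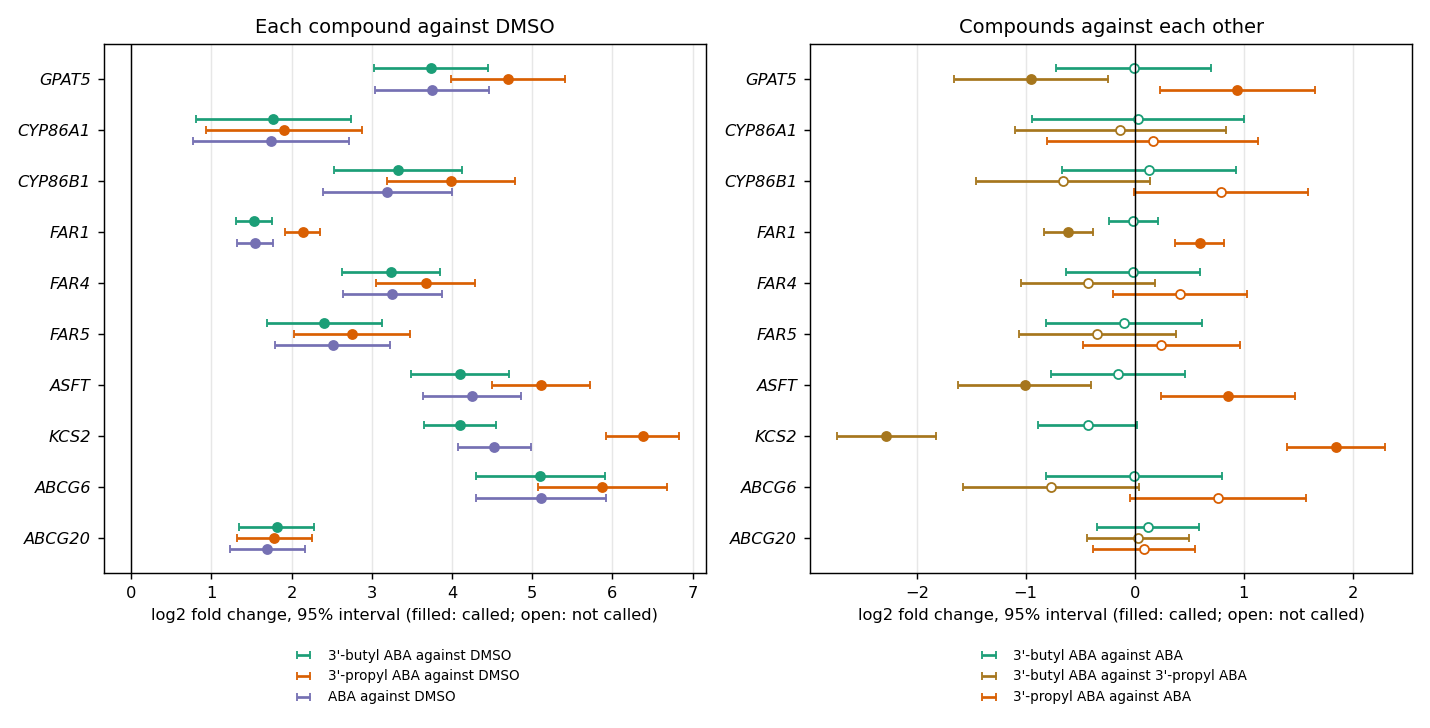
Log2 fold changes of the 10 suberin genes with 95% intervals from limma, each compound against DMSO on the left and the compounds against each other on the right, as the first-named minus the second. Filled points have an adjusted p under 0.05 and open points do not. All points on the left are filled, and on the right the filled ones belong to GPAT5, FAR1, ASFT and KCS2 in the comparisons with 3'-propyl ABA.

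The make-up of the pool is given as a description, since it was examined after the values had been seen. KCS2 made up 14.5%, 14.2% and 13.9% of the summed TPM of the 10 genes with 3'-butyl ABA, 30.0%, 35.3% and 31.4% with 3'-propyl ABA, 18.0%, 16.5% and 18.8% with ABA, and 6.54%, 6.98% and 6.36% with DMSO. The shares of KCS2 did not overlap between any 2 treatments. With DMSO, FAR1 (31.0% of the summed means) and CYP86A1 (20.6%) led the pool. ASFT led it with 3'-butyl ABA (30.3%) and with ABA (31.2%), and KCS2 (32.1%) and ASFT (28.3%) led it with 3'-propyl ABA. In the order by mean TPM, GPAT5 and CYP86A1 held the fifth and sixth places with each compound, and their means differed by less than the spread between libraries with 3'-butyl ABA and with ABA. KCS2 and ABCG6 changed order between the libraries with ABA. With DMSO the means of GPAT5, ABCG6, CYP86B1, FAR4 and FAR5, 1.94 to 2.76 TPM, differed by less than the SD of any of them.

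**Figure D3:**
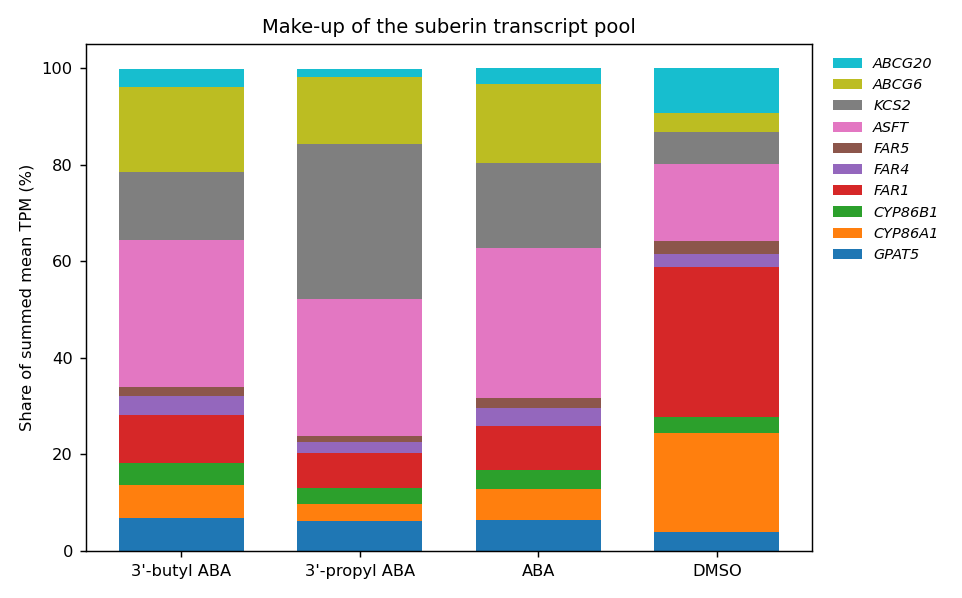
Share of each gene in the summed mean TPM of the 10 suberin genes (%), for 3'-butyl ABA, 3'-propyl ABA, ABA and DMSO from left to right, with n = 3 libraries each and no error drawn. The KCS2 segment is widest with 3'-propyl ABA (32.1%), and the FAR1 and CYP86A1 segments are widest with DMSO (31.0% and 20.6%).

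Within a treatment the genes varied together. In DMSO, replicate 1 was the highest and replicate 2 the lowest library for 10 of 10 genes, with highest-to-lowest ratios from 1.15 for FAR1 to 5.06 for ABCG6. In ABA, replicate 2 was highest for 10 of 10 and replicate 3 lowest for 9 of 10. The summed TPM of the 10 genes was 764, 583 and 640 with 3'-butyl ABA, 1430, 1310 and 1540 with 3'-propyl ABA, 715, 902 and 561 with ABA, and 106, 47.5 and 61.9 with DMSO. At the depth estimated from the smallest steps of the TPM values, 9.34 to 12.16 times 1000000 reads in genes per library, GPAT5 rested on about 61, 18 and 29 reads in the DMSO libraries and ABCG6 on about 83, 20 and 33.

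Markers of the endodermis were highest in DMSO replicate 1 as well, but with ABA and 3'-propyl ABA they peaked in other libraries than the suberin genes. In every treatment most of both sets were lowest in the same library. Of 10 such markers (CASP1 to CASP5, MYB36, ESB1, SGN3, PER64 and SCR), 10 were highest in DMSO replicate 1, and none was at 0 in any library. In ABA, 8 of 10 markers were highest in replicate 1, and 10 of 10 suberin genes in replicate 2. In 3'-propyl ABA, 9 of 10 markers were highest in replicate 1, and 8 of 10 suberin genes in replicate 3. The shared lowest library was ABA replicate 3 (8 of 10 markers, 9 of 10 suberin genes) and 3'-propyl ABA replicate 2 (6 and 8). With 3'-butyl ABA it was replicate 2 (7 and 9), and with DMSO replicate 2 (8 and 10). The summed TPM of the markers was 191, 151 and 175 with 3'-butyl ABA, 91.4, 61.2 and 68.4 with 3'-propyl ABA, 142, 90.6 and 69.7 with ABA, and 182, 76.4 and 77.9 with DMSO. CASP1, which builds the Casparian strip, had 60.7, 49.7 and 53.5 TPM with 3'-butyl ABA, 24.5, 12.9 and 19.3 with 3'-propyl ABA, 43.1, 23.5 and 15.5 with ABA, and 60.3, 20.3 and 20.5 with DMSO. Against DMSO, 2 of the 10 markers, CASP5 and SGN3, were called higher with each compound. This was near the 25.1%, 27.5% and 22.0% of all genes called higher with 3'-butyl ABA, 3'-propyl ABA and ABA. With 3'-propyl ABA 3 were called lower, where 38.5% of all genes were, and with 3'-butyl ABA or ABA 0 were. Without DMSO replicate 1 the count called higher with 3'-butyl ABA was 7. Without ABA replicate 2 the count called higher with ABA was 1, and without DMSO replicate 1 or 3'-propyl ABA replicate 3 the count called lower with 3'-propyl ABA was 1. With 3'-butyl ABA against 3'-propyl ABA, 6 of the 10 markers were called higher (median log2 difference 1.11), against 31.2% of all genes, in the comparison in which 4 suberin genes were called lower. The count of markers was 3 without 3'-butyl ABA replicate 1 or 3'-propyl ABA replicate 2 or 3. The part of the amount of endodermis in the changes of the suberin genes was not tested.

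The summed TPM of the suberin genes per TPM of the 10 endodermis markers, a ratio chosen after the values had been seen, was 4.01, 3.87 and 3.65 with 3'-butyl ABA, 15.7, 21.3 and 22.5 with 3'-propyl ABA, 5.04, 9.96 and 8.04 with ABA, and 0.581, 0.622 and 0.794 with DMSO. Of 7 root hair markers, none at 0 in any library, 7 were highest in DMSO replicate 1 and 7 in ABA replicate 1. Their summed TPM was 76.4 to 150 with 3'-butyl ABA, 49.8 to 91.4 with 3'-propyl ABA, 30.1 to 102 with ABA and 62.6 to 172 with DMSO. Against DMSO 1 of the 7, RHD6, was called higher with 3'-butyl ABA and 0 with the other compounds. Of all genes, 25.1% were called higher with 3'-butyl ABA, 27.5% with 3'-propyl ABA and 22.0% with ABA. With 3'-propyl ABA the count was 1 under median-of-ratios scaling, quantile normalization or a replicate block and without DMSO replicate 1. It was also 1 with a pseudocount of 0.1 and in a fit of the 6 libraries compared alone. With ABA the count was 1 with a replicate block and without ABA replicate 3, DMSO replicate 1 or both. Without ABA replicate 1, 4 were called lower with ABA, and without 3'-propyl ABA replicate 2, 1 was called lower with 3'-propyl ABA. COBL9, a root hair gene, averaged 4.21 ± 1.23 TPM with 3'-butyl ABA, 2.30 ± 0.541 with 3'-propyl ABA, 2.04 ± 1.66 with ABA and 2.75 ± 1.06 with DMSO (SD, n = 3 each).

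**Figure D4:**
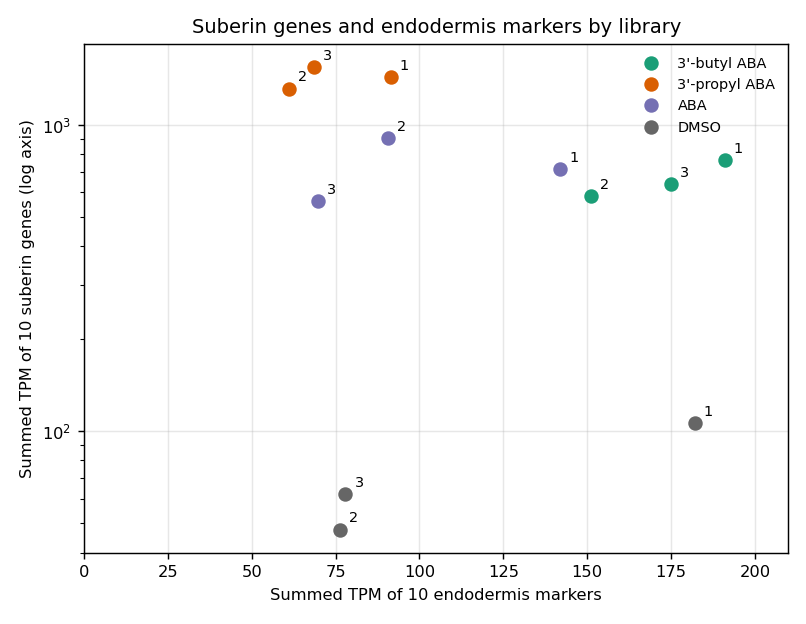
Summed TPM of the 10 suberin genes (log axis) against the summed TPM of 10 endodermis markers, 1 point per library, with replicate numbers beside the points. The 3'-propyl ABA libraries have the highest suberin sums (1310 to 1540 TPM) and low marker sums (61.2 to 91.4 TPM), the 3'-butyl ABA libraries have marker sums of 151 to 191 TPM, and DMSO replicate 1 stands apart from the other DMSO libraries on both axes.

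Other genes of suberin rose with the 10. Of 9 further genes of suberin and chain elongation, 7 were called higher and 1 lower with 3'-butyl ABA (median log2 fold change 0.64), 9 higher with 3'-propyl ABA (1.42), and 7 higher and 1 lower with ABA (0.73). The gene that was lower in both cases was KCS20. Of all genes, 25.1% were called higher and 25.6% lower with 3'-butyl ABA, 27.5% and 38.5% with 3'-propyl ABA, and 22.0% and 24.7% with ABA. KCR1, the ketoacyl reductase of chain elongation, averaged 138 ± 8.66 TPM with 3'-butyl ABA, 252 ± 12.8 with 3'-propyl ABA, 148 ± 17.5 with ABA and 88.8 ± 5.23 with DMSO (SD, n = 3 each). KCR1 was called higher in each comparison with DMSO. Against ABA, 7 of the 9 further suberin genes were called higher with 3'-propyl ABA, where 15.5% of all genes were. Of 12 genes of phenylpropanoid supply, 10 were called higher with each compound, and 1 lower with 3'-butyl ABA, 2 with 3'-propyl ABA and 1 with ABA. The largest rise was that of PAL4, a phenylalanine ammonia-lyase, with log2 fold changes of 3.03 with 3'-butyl ABA, 3.48 with 3'-propyl ABA and 2.94 with ABA. The genes called lower encode the same kind of enzyme. They were PAL3, with log2 fold changes of -0.39 with 3'-butyl ABA, -0.98 with 3'-propyl ABA and -0.73 with ABA, and PAL2, with -0.51 with 3'-propyl ABA; both are named after their values were seen. The call of PAL3 with 3'-butyl ABA was lost under median-of-ratios scaling (limma, adjusted p = 0.052) and in a fit of the 6 libraries compared alone. It was also lost without any 1 of the 3 3'-butyl ABA libraries, DMSO replicate 2 or DMSO replicate 3. Under quantile normalization, with a replicate block or without ABA replicate 2, 2 genes of the list were called lower with ABA. With 3'-butyl ABA the count called higher was 9 under median-of-ratios scaling. It was also 9 without 3'-butyl ABA replicate 1 or 3 or DMSO replicate 1. The median of this list was 0.94 with 3'-butyl ABA, 0.85 with 3'-propyl ABA and 0.78 with ABA. C4H, the next enzyme, rose by 0.97 with 3'-butyl ABA, 1.40 with 3'-propyl ABA and 0.78 with ABA.

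Of 9 known regulators of suberin genes, 8 were tested, and 6 were called higher with 3'-butyl ABA, 7 with 3'-propyl ABA and 5 with ABA, with 0 lower. Their median log2 fold change was 1.55 with 3'-butyl ABA, 1.96 with 3'-propyl ABA and 1.57 with ABA. Of all genes, 25.1% were called higher with 3'-butyl ABA, 27.5% with 3'-propyl ABA and 22.0% with ABA. With ABA the count of regulators was 4 in a fit of the 6 ABA and DMSO libraries alone and without ABA replicate 1 or 2. It was also 4 without DMSO replicate 2 or 3, and 6 without ABA replicate 3 or without the filter. MYB41, a factor that can switch on suberin synthesis, had 7.00, 5.41 and 4.45 TPM with 3'-butyl ABA, 11.9, 13.1 and 10.7 TPM with 3'-propyl ABA, 5.62, 6.36 and 4.25 TPM with ABA, and 0.113 TPM in DMSO replicate 1. It was listed at 0 in the other DMSO libraries. MYB41 was called higher with 3'-propyl ABA than with ABA (log2 difference 1.02 ± 0.17), while MYB9 and MYB107, which act on suberin genes in seed coats, differed by 0.49 and 0.16 and were not called. Against DMSO, MYB9 rose by 2.85 with 3'-butyl ABA, 3.26 with 3'-propyl ABA and 2.78 with ABA. MYB107 had 9.60, 6.33 and 8.94 TPM with 3'-butyl ABA, 11.8, 9.47 and 11.7 TPM with 3'-propyl ABA, 9.36, 12.1 and 7.91 TPM with ABA, and 0.541, 0.27 and 0.209 TPM with DMSO. ANAC058, a NAC factor, rose by 1.67 with 3'-butyl ABA, 2.12 with 3'-propyl ABA and 1.74 with ABA.

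Genes of cutin, the related polyester of the shoot surface, were called in both directions. Of 11, 3 were called higher and 3 lower with 3'-butyl ABA, 6 higher and 3 lower with 3'-propyl ABA, and 6 higher and 2 lower with ABA. Of all genes, 25.1% were called higher and 25.6% lower with 3'-butyl ABA, 27.5% higher and 38.5% lower with 3'-propyl ABA, and 22.0% higher and 24.7% lower with ABA. With 3'-butyl ABA the shares of the cutin genes were near those of all genes. Their median log2 fold change was 0.03 with 3'-butyl ABA, 0.36 with 3'-propyl ABA and 0.32 with ABA. With ABA the count called higher was 4 under quantile normalization and in a fit of the 6 ABA and DMSO libraries alone. It was also 4 without ABA replicate 2 or 3 or DMSO replicate 3. With 3'-propyl ABA the count was 4 without 3'-propyl ABA replicate 3 or DMSO replicate 1, and 7 with median-of-ratios scaling. CYP86A2, the cutin counterpart of CYP86A1, averaged 231 ± 6.17 TPM with 3'-butyl ABA, 462 ± 31.9 with 3'-propyl ABA, 316 ± 61.3 with ABA and 228 ± 19.6 with DMSO (SD, n = 3 each). GPAT8, the cutin counterpart of GPAT5, averaged 38.9 ± 3.32 TPM with 3'-butyl ABA, 18.2 ± 2.79 with 3'-propyl ABA, 39.5 ± 4.53 with ABA and 53.7 ± 2.85 with DMSO (SD, n = 3 each). GPAT8 was called lower with each compound, whereas CYP86A2 was called higher with 3'-propyl ABA and with ABA and was not called with 3'-butyl ABA.

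Over the 12 libraries, the log2 profile of each member correlated with the mean profile of the other 9 at r = 0.928 for CYP86A1 to 0.998 for GPAT5, over points that fall into DMSO and treated libraries and are not independent. The 5 genes outside all lists with the profile most like the mean of the 10, by Pearson's r over the same 12 libraries, were AT1G68850, a peroxidase (r = 0.999), AT5G13900, of the lipid-transfer protein superfamily (0.998), AT4G03540, of an uncharacterized protein family (0.997), the laccase gene LAC5 (0.997) and APA1, an aspartic proteinase (0.997). AT5G13900 averaged 68.1 ± 9.79 TPM with 3'-butyl ABA, 117 ± 22.0 with 3'-propyl ABA, 67.4 ± 16.1 with ABA and 1.91 ± 2.16 with DMSO (SD, n = 3 each). APA1 had the same shape on a much smaller scale, with log2 fold changes against DMSO of 0.84 with 3'-butyl ABA, 1.07 with 3'-propyl ABA and 0.88 with ABA.

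The members are distinct enough in sequence for reads of 100 bases to be assigned, as far as exact repeats go. Between the coding sequences of a member and its closest relatives, identity reached 87.5% for FAR5 and FAR8, 84.6% for KCS2 and KCS20, 82.2% for ABCG20 and ABCG2 and 80.2% for CYP86B1 and CYP86B2, and the longest run of identical bases was 53, in KCS2 and KCS20. FAR4 and FAR5 shared 74.4%. A gene on the opposite strand overlaps FAR1, FAR4, ASFT and KCS2 in the annotation. The one over FAR1 was listed at 0 in every library. A non-coding gene overlaps 2302 of the 3088 bases of KCS2, and neither it nor the non-coding gene over FAR4 is among the genes analysed here. Whether the counting used the strand is not given in the sources used here, so reads from such partners cannot be told apart from those of the members.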

How the data were processed

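The deposited tables give 27655 genes in TPM, computed by the authors from reads of poly(A) RNA, with 1 column for each library and a sum of 1000000 per column. Per the submitters' processing notes, bcl2fastq and the TAIR10 genome were used; which programs aligned and counted the reads, and with which annotation, is not stated there. TPM are not counts, so the comparisons, planned for counts with limma as the option for normalized values, used limma 3.58.1 in R 4.3.3 on log2(TPM + 1). The filter required a mean of 1 TPM or more across the 12 libraries, which left 19528 genes. The model held a mean for each of the 4 treatments, with moderated variances (trend, robust; 8 residual degrees of freedom, prior degrees of freedom 4.05 at the median). Tests were two-sided, p-values were adjusted by the Benjamini-Hochberg method across these genes, and the threshold was 0.05. The fit was also run on simulated data with independent libraries and a smaller spread than most suberin genes had in DMSO. That run does not speak to the spread these genes shared between libraries.

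The labels gave the groups, and the replicate numbers were not treated as pairs. Low TPM values were whole multiples, within 0.1 of a step, of a smallest step per gene for 99.6% to 99.9% of 1071 to 1293 values per library. From this step, 9.34 to 12.16 times 1000000 reads in genes per library were estimated, which covers counting error only. Log2 values of replicates correlated at 0.975 to 0.993 across genes. Gene models, promoters and identities were read from the RefSeq TAIR10.1 genome and annotation with Biopython 1.88. Named are all 10 members, up to 4 genes per list with the largest change against DMSO, CASP1, COBL9, close relatives of a member and the 5 genes of most similar profile. The members, lists and tests were chosen with earlier results of these data known. Alternatives were a pseudocount of 0.1, no filter, median-of-ratios scaling, quantile normalization, the 6 libraries compared alone, a replicate block, a fold threshold and leaving out each library. Those for the gene lists other than the members were added after seeing the data.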

Additional observations from a re-analysis of the deposited data

How the results depend on the processing

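Against DMSO, all 10 suberin genes were called with each compound under every alternative, and leaving out 1 library at a time gave 10 to 10. Between 3'-butyl ABA and ABA the count was 0 under every alternative, 0 to 0 when a library was left out. For 3'-propyl ABA against ABA the 4 calls became 3 with a pseudocount of 0.1, 6 in a fit of the 6 libraries alone, 1 (KCS2) when a log2 fold change of at least 1 was required, and 2 to 4 when a library was left out. For 3'-butyl ABA against 3'-propyl ABA the 4 calls became 3 with a pseudocount of 0.1, 7 in a fit of the 6 libraries alone, where CYP86B1, FAR4 and ABCG6 were added, 2 with the fold threshold, and 3 to 4 when a library was left out. Median-of-ratios scaling moved the median of all genes by 0.12 for 3'-propyl ABA against DMSO, 0.1 against ABA, and -0.118 for 3'-butyl ABA against 3'-propyl ABA, and quantile normalization moved the last by -0.111; no count of suberin genes changed with either. Leaving out DMSO replicate 1 and ABA replicate 3 together, chosen after seeing the data, left 10 genes called with ABA. The cause of these changes was not tested.

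The values do not settle whether the replicate numbers pair the samples. Correlations between same-numbered libraries ran from -0.168 to 0.329, 9 of 18 were over 0.1, and 10 of 18 were best with their own number. A replicate block gave 10, 10 and 10 calls against DMSO, 0 for 3'-butyl ABA against ABA and 4 for each pair with 3'-propyl ABA, the same counts as without it. Of the 10 endodermis markers it called 6 higher with 3'-butyl ABA than with DMSO, against 2 without it, and 8 higher with 3'-butyl ABA than with 3'-propyl ABA, against 6; with ABA it called 1 lower than with DMSO, against 0.

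Ranking similar genes by Spearman's rho kept 2 of the 5 named. With only the 200 bases before the start, the count of members with an AC element was 0. Depth limits the DMSO levels most, where FAR5 rested on about 66, 16 and 26 reads.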

Other observations

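Of 16 close relatives of the suberin genes, some of which also stand among the further suberin genes, 11 were tested. With 3'-butyl ABA 6 were called higher and 3 lower than with DMSO, with 3'-propyl ABA 8 higher and 2 lower, and with ABA 6 higher and 3 lower. Against ABA, 7 of the 11 were called higher with 3'-propyl ABA, where 15.5% of all genes were. Of all genes, 25.1% were called higher and 25.6% lower with 3'-butyl ABA, 27.5% and 38.5% with 3'-propyl ABA, and 22.0% and 24.7% with ABA. The 2 lower calls with 3'-propyl ABA became 1 with quantile normalization and without DMSO replicate 1 or 3'-propyl ABA replicate 1. KCS9, a ketoacyl-CoA synthase related to KCS2, averaged 79.6 ± 3.21 TPM with 3'-butyl ABA, 146 ± 15.7 with 3'-propyl ABA, 82.8 ± 4.21 with ABA and 112 ± 4.45 with DMSO (SD, n = 3 each). DCF, a relative of ASFT that acts on cutin ferulate, averaged 17.9 ± 0.275 TPM with 3'-butyl ABA, 14.8 ± 0.614 with 3'-propyl ABA, 17.6 ± 4.99 with ABA and 28.0 ± 2.29 with DMSO (SD, n = 3 each), and was called lower with each compound.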
